A study of Mus musculus with 11 samples.

Results

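The choroid plexus (CP) epithelium of mice at the peak of experimental autoimmune encephalomyelitis (EAE) was compared with that of untreated adult mice. Cells were taken from single-cell libraries of myelin-depleted cerebral cortex, made with 10x 3′ v2 reagents. Their barcodes tag every captured RNA molecule, so that molecules (UMIs) and not reads are counted. A cell counted as CP epithelium when Ttr held at least 10% of its UMIs, Folr1, Clic6 and Enpp2 together at least 3 UMIs, and the endothelial genes Cldn5 and Flt1 together at most 2 UMIs. By this rule 2141 of the 27273 kept cells of the 5 libraries were CP epithelium, 522, 481 and 441 in the 3 Adult libraries and 318 and 379 in the 2 EAE libraries. In all 11 libraries of the study 50625 cells of 54646 barcodes were kept, that is, barcodes with over 500 and under 6000 genes and under 25% mitochondrial UMIs. The other libraries came from Juvenile mice of postnatal day 10 (6 pooled) and Aged mice of 18 months (3 pooled). They entered the fit of the main comparison. The study's methods give female C57BL/6 mice as the default. Adult mice were untreated C57BL/6 animals of 7 to 11 weeks, and the tissue of 6 mice was pooled. EAE mice were female C57BL/6 animals of 7 to 11 weeks that had been immunised with residues 35 to 55 of myelin oligodendrocyte glycoprotein in complete Freund's adjuvant and given pertussis toxin, again on day 2, and the tissue of 3 mice was pooled. No animals with adjuvant and toxin alone were analysed here, so the disease and these agents cannot be told apart. Nothing in the labels says that libraries of a condition came from separate groups of mice, so the p-values measure the spread between libraries, which may be technical.

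The CP lies in the brain ventricles and not in the cortex. Its epithelium secretes most of the cerebrospinal fluid with a set of apical and basolateral ion carriers, releases transthyretin (the product of Ttr) and other carrier proteins into it, and closes the barrier between blood and fluid with tight junctions, since the capillaries beneath it are leaky. It also imports folate, ascorbate, iron and thyroid hormone, and it is a known route of immune cell entry in EAE. Interferons act on the epithelium through their receptors, which switch on antiviral genes and the genes of antigen presentation.

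Cells chosen by the rule carried the CP program. The gate genes, which are given as a description, stood for Ttr at 357316, 366416 and 351350.1 CPM in the Adult and 310942 and 309284 CPM in the EAE libraries, where CPM are the UMIs of a gene per 1000000 UMIs of the summed CP cells of a library. Folr1, the folate receptor, stood at 1007, 1082 and 1089 CPM in the Adult and 1099 and 1048 CPM in the EAE libraries, and Enpp2 (autotaxin) at 19133, 15609 and 15238 CPM in the Adult and 16979 and 17943 CPM in the EAE libraries. Clic6, an intracellular chloride channel protein, stood at 505, 479 and 516 CPM in the Adult and 1169 and 1153 CPM in the EAE libraries, so both EAE libraries were above the Adult ones for this gene. The 10 CP markers that the rule did not use (among them Kl, Otx2, Aqp1 and Prlr) summed to 3393 to 3932 CPM in Adult and 4336 and 4569 CPM in EAE cells, against 90.4 to 498 CPM in kept cells with under 10% Ttr. None of the 10 was at 0 in a library. Few cells lay near the Ttr limit: 7, 1 and 4 Adult and 10 and 9 EAE members had 10 to 12% Ttr, and 29, 5 and 1 and then 7 and 6 cells lay just outside at 8 to 10%. At the endothelial limit, 169, 146 and 152 Adult and 80 and 85 EAE members held exactly 2 UMIs, and 134, 110 and 115 and then 49 and 45 cells with 3 were left out. At most 2 members of a library held just 3 marker UMIs.

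The endothelial limit weighed on the conditions unequally. Of the cells with enough Ttr and marker UMIs it left out 54.6%, 46.0% and 50.8% in the Adult and 27.4% and 20.2% in the EAE libraries, and the cells left out were deep, with medians of 7376 to 11435 UMIs in Adult and 17908 to 19663 in EAE libraries. Members held a median of 2419 to 2792.5 UMIs in Adult and 7540 to 7859 in EAE libraries, as the plot of depth by library shows, and mitochondrial transcripts made up a median of 1.92 to 2.31% against 4.71 to 4.999%. RNA of other cells was present in both conditions. The 8 endothelial markers outside the rule summed to 1299 to 1319 CPM in Adult and 371 to 399 CPM in EAE members, the 8 oligodendrocyte markers to 199 to 292 and 37.7 to 38.1 CPM, and the 5 red blood cell markers to 3028 CPM in Adult 1, 384 and 429 CPM in Adult 2 and 3 and 70.4 to 86.2 CPM in EAE. Neutrophil markers went the other way (41.7 to 73.7 CPM against 185 CPM in each EAE library), and 8 leukocyte markers overlapped (344 to 618 against 324 to 426 CPM). The part of depth and of other cells' RNA in the results was not tested. Values are instead given for 2 further sets of CP cells, which were chosen after the data had been seen. In the first, Cldn5 and Flt1 were limited to 0.1% of a cell's UMIs in place of 2 UMIs, which gave 1052, 740 and 756 Adult and 406 and 459 EAE cells (the share limit). In the second, only cells of 2000 to 6000 UMIs among these were used, which gave 392, 344 and 324 Adult and 106 and 104 EAE cells with medians of 3340.5 to 3775 UMIs (matched depth). The summed UMIs of an EAE library then fell from 3098191 and 3790715 to 407825 and 403367, so matched depth also tests with less material.

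**Figure D1:**
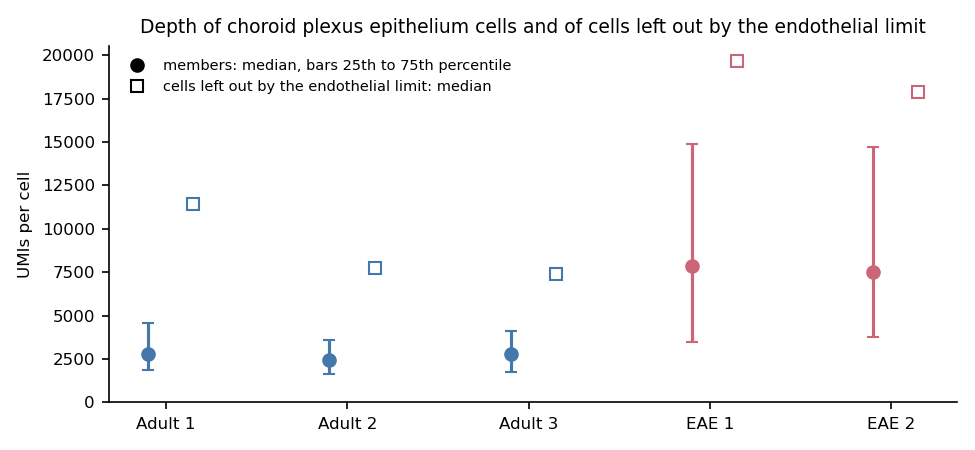
Depth of CP epithelium cells, in UMIs per cell (linear axis), for each Adult and EAE library. Filled points are the medians of the members with bars from the 25th to the 75th percentile, open squares the medians of cells left out by the endothelial limit; members of both EAE libraries have medians of 7540 and 7859 UMIs, those of the 3 Adult libraries of at most 2792.5 UMIs.

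Across all genes, 4632 of 10610 tested (43.7%) differed between EAE and Adult CP cells at an adjusted p of 0.05 (edgeR quasi-likelihood test on UMIs summed per library, Benjamini-Hochberg). EAE was above Adult for 2499 of them (23.6% of the genes tested) and below for 2133 (20.1%), and the median log2 fold change of all genes was 0.01. Libraries of the conditions did not overlap for 38.8% of genes on the higher and 21.7% on the lower side. With the share limit 35.4% of 12873 genes were called (2142 higher, 16.6%, and 2416 lower, 18.8%). At matched depth 4.11% of 7539 were called (130 higher, 1.72%, and 180 lower, 2.39%). Genes called higher shrank more than those called lower: for 1095 of the 2499 the fold was over 1.5 times smaller with the share limit, and their median log2 fold change went from 1.15 to 0.59 and, at matched depth, to 0.40. Among the 2133 lower genes 80 shrank so far, and the median went from −0.82 to −0.67 and −0.39. Without members that held 3 or more UMIs of leukocyte marker lists, which left 44, 235 and 198 Adult but 16 and 23 EAE cells, 33 of 2762 genes were called. Among these were H2-K1 (2.20, edgeR adjusted p = 2.4e-04), Cd74 (2.30, edgeR adjusted p = 0.014) and Ifi27l2a (3.21, edgeR adjusted p = 0.011).

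Type I interferon-stimulated genes were mostly higher in EAE. Of 28 tested, 16 were higher and 2 lower in EAE where 23.6% and 20.1% of all genes were, and the median log2 fold change of the list was 0.75. With the share limit 19 of 33 rose and 3 fell (median 0.85), and at matched depth 10 of 20 rose and none fell (median 1.08, with 1.72% of all genes called higher). Different members were tested in each set, since low genes drop out. Bst2 encodes tetherin, which holds budding viruses at the cell surface. It stood at 185, 165 and 180.4 CPM in the Adult and 714 and 566 CPM in the EAE libraries. For Bst2 the log2 fold change was 1.70 ± 0.33 (SE, edgeR adjusted p = 0.0045). Both EAE libraries lay above every Adult library, and the value was 1.61 with the share limit and 1.85 at matched depth. Ifi27l2a, a small interferon-induced mitochondrial protein gene, stood at 35.7, 18.5 and 17.9 CPM in the Adult and 256 and 194 CPM in the EAE libraries. For Ifi27l2a the log2 fold change was 3.02 ± 0.21 (SE, edgeR adjusted p = 5.5e-09).

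Lgals3bp, a secreted glycoprotein gene, had 155, 125 and 118 CPM in the Adult and 290.2 and 269 CPM in the EAE libraries (log2 fold change 0.91 ± 0.13 (SE), edgeR adjusted p = 1.8e-06), and Rtp4, an interferon-induced chaperone gene of receptors, had 16.2, 14.3 and 11.0 CPM in the Adult and 55.2 and 39.6 CPM in the EAE libraries. The change of Rtp4 was 1.59 ± 0.21. Ifit1, whose product binds foreign RNA caps, stood at 4.87, 5.70 and 3.44 CPM in the Adult and 25.5 and 20.05 CPM in the EAE libraries. For Ifit1 the log2 fold change was 2.11 ± 0.32 (SE, edgeR adjusted p = 7.0e-06). Isg15, a ubiquitin-like modifier gene, stood at 11.4, 7.84 and 7.57 CPM in the Adult and 29.0 and 21.9 CPM in the EAE libraries. The change of Isg15 was 1.31 ± 0.33. All of these had EAE libraries that did not overlap the Adult ones. Stat2, the transcription factor of type I interferon signaling, rose from 2.16 to 3.44 CPM in Adult to 11.9 and 15.5 CPM in EAE (2.12 ± 0.41, 1.47 with the share limit). Zbp1, a sensor of nucleic acids, rose from at most 2.14 CPM to 6.60 and 8.71 CPM (2.38 ± 0.75), but did not pass without Adult 3 (1.85) or without EAE 1 (2.18). At these Adult levels Ifit1, Stat2 and Zbp1 could not pass the filter on low counts through Adult alone and could hardly be called lower. The members called lower were Lgals9 and Ly6a, the latter a gene of brain endothelium. Bst2, Lgals3bp, Rtp4 and Isg15 were singled out after their values had been seen. At matched depth the values of Ifit1 and Isg15 were 3.19 and 1.99.

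Many interferon-stimulated genes are known to carry a response element in their promoters, and its sequence is shown because these genes moved together. RefSeq promoters (250 bases before to 50 after the start, GRCm38.p6) were searched on both strands for a core of the interferon-stimulated response element, that is, a pair of GAAA with any 2 bases between them. It was found in 3.99% of 27025 promoters. Of the 16 interferon-stimulated genes that rose, 12 matched a promoter in the table and 9 of these held it, as did 5 of 10 that were tested and did not rise. Whether these shares differ was not tested. Each stretch of 30 bases reads 5′ to 3′ on the strand of the gene, with the match in capitals.
Bst2: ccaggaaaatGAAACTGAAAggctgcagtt
Ifit1: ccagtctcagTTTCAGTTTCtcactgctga
Isg15: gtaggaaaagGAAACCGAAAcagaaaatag
Stat2: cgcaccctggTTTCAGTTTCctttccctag
Igtp: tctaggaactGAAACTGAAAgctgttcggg
B2m: ataagaacatGAAACTGAAAatgggaaagt
The stretch of Bst2 is at chr8:71537577-71537606, minus strand, with the match beginning 124 bases before the start. That of Ifit1 is at chr19:34640794-34640823, plus strand (85 bases before), that of Isg15 at chr4:156200871-156200900, minus strand (72 bases), and that of Stat2 at chr10:128270266-128270295, plus strand (222 bases). Igtp, an interferon-γ target, has it at chr11:58199512-58199541, plus strand (34 bases), and B2m, of MHC class I, at chr2:122147538-122147567, plus strand (139 bases). In Ifit1 and Stat2 the match is the reverse complement.

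**Figure D2:**
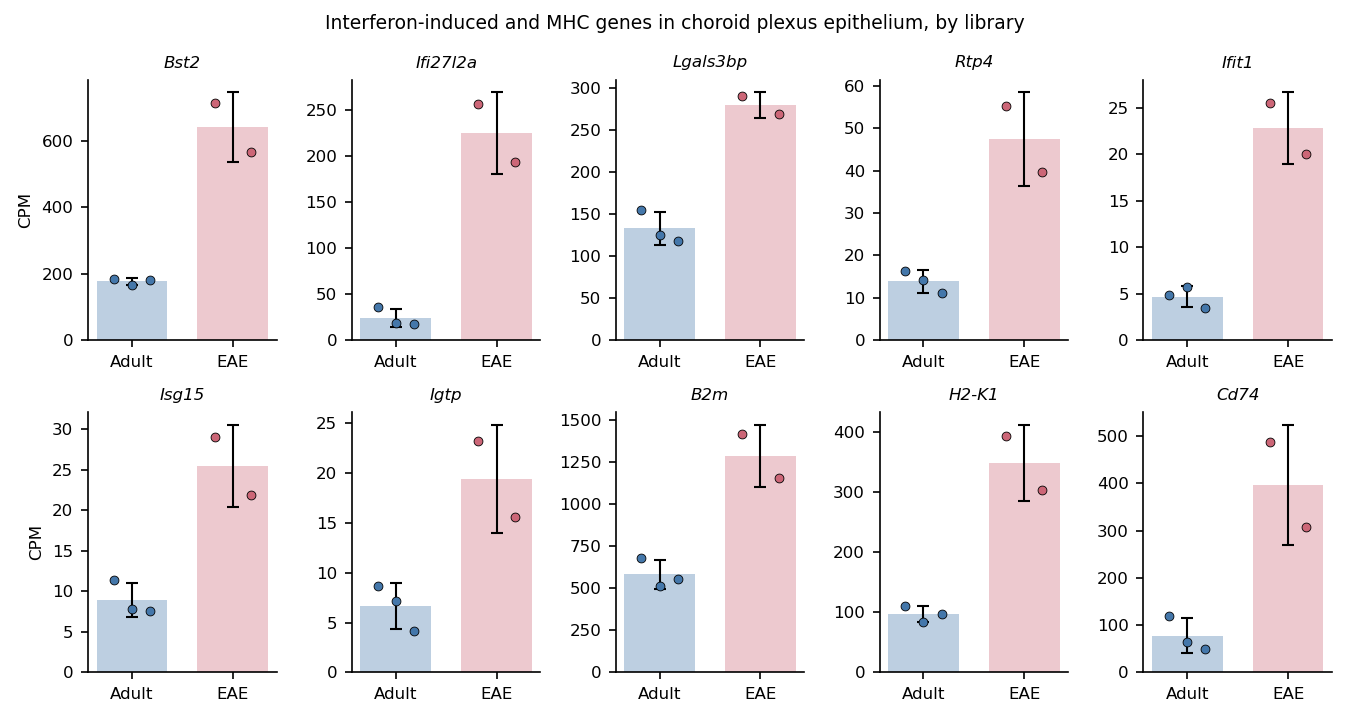
CPM of 10 interferon-induced and MHC genes in CP epithelium (linear axes from 0); points are libraries, bars group means and error bars SDs (Adult n = 3, EAE n = 2). Both EAE libraries lie above all Adult libraries for each gene, from 566 and 714 CPM against at most 184.5 CPM for Bst2 to 15.6 and 23.2 CPM against at most 8.66 CPM for Igtp.

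Interferon-γ targets and MHC class I genes were also more often higher than lower, mostly at low or moderate levels. Of 13 interferon-γ genes tested, 5 rose and none fell (median 0.75, with 23.6% and 20.1% of all genes), and with the share limit 15 of 21 rose (median 1.16, with 16.6% of all genes). At matched depth 6 were tested and 1 rose (median 1.25, with 1.72% of all genes). The guanosine triphosphatase genes Iigp1, Igtp and Irgm1, which act against intracellular parasites, stood below 30 CPM in each library, with log2 fold changes of 2.83 ± 0.48, 1.34 ± 0.31 and 0.87 ± 0.27. Of 21 MHC class I and peptide loading genes 10 rose and 2 fell (median 0.53), where 23.6% and 20.1% of all genes did, and 8 of 18 rose at matched depth (median 0.98, with 1.72% of all genes). B2m, the light chain of MHC class I, stood at 679.7, 513 and 553 CPM in the Adult and 1419 and 1158 CPM in the EAE libraries. For B2m the log2 fold change was 0.99 ± 0.12 (SE, edgeR adjusted p = 2.6e-07). H2-K1, a classical heavy chain, stood at 109.9, 84.1 and 97.1 CPM in the Adult and 393 and 304 CPM in the EAE libraries (log2 fold change 1.68 ± 0.13 (SE), edgeR adjusted p = 6.2e-11), and H2-D1 at 231, 172 and 198 CPM in the Adult and 402 and 325 CPM in the EAE libraries. The change of H2-D1 was 0.70 ± 0.13. Irgm1 did not pass without EAE 1 (0.74), and 7 of the MHC class I list were called without it. Tap1, Tapbp and Psmb8, which make and load peptides, rose with them. Calr and Pdia3, chaperones of peptide loading and of the endoplasmic reticulum at large, fell. At matched depth Irgm1 did not pass (1.10) and H2-D1 was at 1.396.

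MHC class II genes had the largest median of any list, 1.75, with 5 of 6 tested higher in EAE in each of the 3 sets of cells, where 23.6%, 16.6% and 1.72% of all genes were. Cd74, the invariant chain, stood at 119.6, 63.4 and 49.6 CPM in the Adult and 487 and 307 CPM in the EAE libraries. For Cd74 the log2 fold change was 2.17 ± 0.36 (SE, edgeR adjusted p = 0.002). H2-Aa stood at 44.4, 32.8 and 37.2 CPM in the Adult and 172 and 144 CPM in the EAE libraries (1.88 ± 0.14), H2-Ab1 at 70.4, 48.5 and 41.3 CPM in the Adult and 221 and 152 CPM in the EAE libraries (1.62 ± 0.19), and H2-Eb1 at 31.4, 22.1 and 24.1 CPM in the Adult and 143 and 108 CPM in the EAE libraries. The change of H2-Eb1 was 2.09 ± 0.17. EAE 1 was above EAE 2 for each of the 4 genes, and both were above every Adult library. These genes belong to antigen-presenting cells, and in the EAE libraries the level in CP cells was a small percentage of that in the kept cells with under 10% Ttr: 4.21% for Cd74, 4.62% for H2-Aa, 6.19% for H2-Ab1 and 5.27% for H2-Eb1. The 8 neutrophil markers, which CP epithelium is not known to express, stood at 4.06 to 4.70% by the same measure in EAE and the 8 leukocyte markers at 5.01 to 6.56%. H2-K1 stood at 17.6%, B2m at 14.6%, Ifit1 at 22.7%, Ifi27l2a at 33.9% and Bst2 at 123.1%. The lists of monocytes and macrophages, T and NK cells, microglia, endothelial cells and red blood cells stood at 2.15 to 8.78% in EAE and that of B lineage cells at 6.98 to 15.5%. Mural cell markers were at 27.7 to 33.4%, oligodendrocyte markers at 31.4 to 37.02% and neuron markers at 51.04 to 53.5%, and those of fibroblasts, astrocytes and ependymal cells at 62.4% or more. These last lists and that of neurons hold genes that stood higher in CP than in the other cells, such as Pdgfra, Slc7a10, Rsph1 and Meg3. The class II genes stood within the range of the immune, endothelial and red blood cell lists and B2m near its upper end, while H2-K1, Ifit1 and Ifi27l2a stood above it, and Bst2 stood above its level in the other cells. In Adult the percentages were higher for leukocytes (14.6 to 19.5%), neutrophils (10.8 to 19.8%), monocytes and macrophages (13.0 to 16.2%) and microglia (14.8 to 16.9%), so these differed by condition. Those of T and NK cells (5.68 to 10.9%) and B lineage cells (7.72 to 44.2%) in Adult overlapped the EAE values. The 17.6% of H2-K1 in EAE lies within the Adult range of leukocytes and of neutrophils. The part of other cells' RNA in these results was not tested. At matched depth Cd74 was at 2.91.

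Lcn2, Saa3, Hp and Lrg1 of the acute phase list stood at like percentages, while 1 of its 11 genes called higher stood above the level in other cells. Of 26 acute phase and STAT3/NF-κB targets 11 rose and 4 fell (median 0.53), beside 23.6% and 20.1% of all genes, but the median was 0.24 with the share limit and 0.09 at matched depth. Lcn2, an iron-sequestering protein gene, stood at 0.541, 1.43 and 1.38 CPM in the Adult and 17.4 and 18.5 CPM in the EAE libraries. For Lcn2 the log2 fold change was 3.87 ± 0.48 (SE, edgeR adjusted p = 3.0e-07). Saa3, serum amyloid A, was at 1.08, 0 and 0 CPM in the Adult and 21.0 and 16.9 CPM in the EAE libraries, Hp (haptoglobin) at 1.08, 0 and 0 CPM in the Adult and 11.0 and 8.97 CPM in the EAE libraries and Lrg1, a glycoprotein gene induced by interleukin-6, at 1.62, 1.43 and 1.38 CPM in the Adult and 9.04 and 9.50 CPM in the EAE libraries. Each was called higher in EAE at under 25 CPM. In Adult, Lcn2, Saa3, Hp and Lrg1 stood at no more than 1.62 CPM, so they passed the filter on low counts through other groups. They could be called higher but hardly lower, so their calls are no support for the list. In EAE the CP level was 3.07% of that in other cells for Lcn2, 4.51% for Saa3, 5.31% for Hp and 3.80% for Lrg1. S100a8 and S100a9, neutrophil genes singled out after their values had been seen, stood at 3.93% and 4.73%, with 11.9, 19.96 and 22.0 CPM in the Adult and 58.1 and 63.8 CPM in the EAE libraries for S100a9 (1.64 ± 0.20). Among 16 adhesion molecule and chemokine genes 4 rose and 4 fell (median −0.13), near the shares of all genes. Ccl8 and Ccl5, which attract monocytes and T cells, rose to 29.5 and 33.9 CPM and to 59.9 and 159 CPM in EAE, 6.07% and 6.73% of the level in other cells. Ccl5 did not pass without Adult 2 (1.99), and stood at 1.35 without EAE 1. Ccl8 stood at 4.29 without Adult 1, and Saa3 and Hp had 0 UMIs in the other Adult libraries. Vcam1, which holds leukocytes and is a known gene of CP epithelium, stood at 191, 153 and 157 CPM in the Adult and 178 and 172 CPM in the EAE libraries and did not pass the test (log2 fold change -0.09 ± 0.12 (SE), edgeR adjusted p = 0.57). At matched depth Ccl8, Ccl5 and S100a9 were at 3.98, 4.63 and 2.35, while Saa3, Hp and Lrg1 were too low to be tested.

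**Figure D3:**
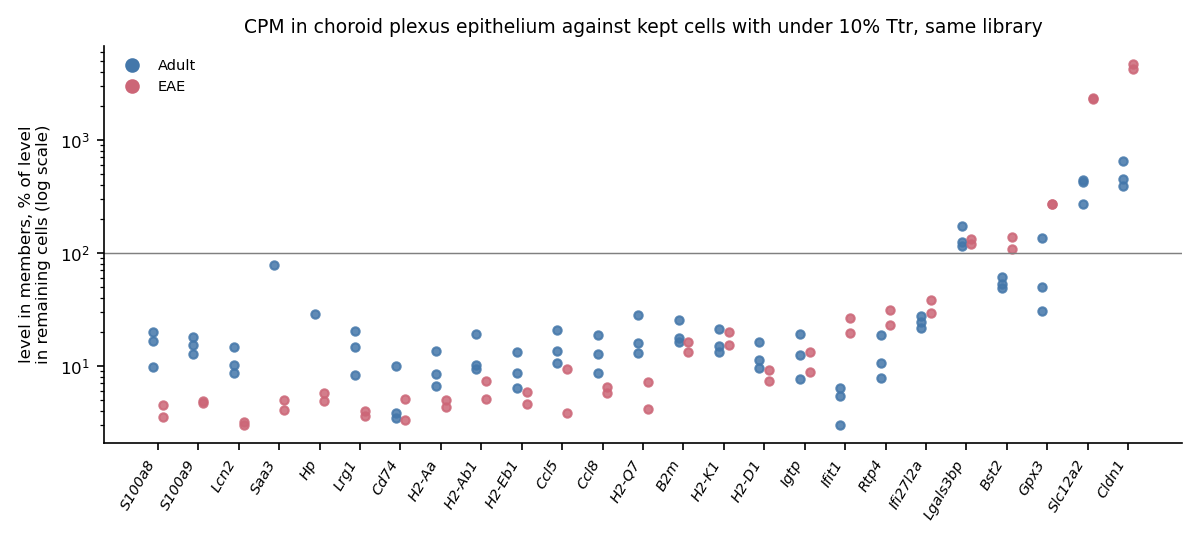
CPM of 25 genes in CP epithelium as a percentage of the CPM in kept cells with under 10% Ttr of the same library (log axis), 1 point per library, with the line at 100%; values at 0 (Saa3 and Hp in Adult 2 and 3) cannot be drawn. In EAE, neutrophil, acute phase and MHC class II genes sit near 3 to 9%, MHC class I and interferon genes from 4 to 39%, and Lgals3bp, Bst2, Gpx3, Slc12a2 and Cldn1 above 100%.

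Shares of CP cells with a UMI of these genes were also compared at equal depth. Each cell was thinned to 1500 UMIs, which left out 14.6 to 18.6% of Adult and 4.72 and 4.75% of EAE members. Bst2 was then found in 21.1, 21.8 and 20.6% in the Adult and 50.5 and 47.1% in the EAE libraries, against 39.1, 29.7 and 35.6% in the Adult and 82.7 and 79.7% in the EAE libraries before thinning. H2-K1 was found in 13.9, 12.4 and 12.8% in the Adult and 42.9 and 34.3% in the EAE libraries, and Ifi27l2a in 5.16, 3.04 and 3.06% in the Adult and 22.4 and 19.7% in the EAE libraries. For S100a8, which marks neutrophils, the shares were 3.14, 3.80 and 5.29% in the Adult and 11.6 and 11.9% in the EAE libraries, so a gene of other cells was also found more often. For Cd74 they were 8.74, 8.61 and 5.57% in the Adult and 37.0 and 31.3% in the EAE libraries. Before thinning, EAE members held H2-K1 in 78.4 to 80.8%, Ifi27l2a in 50 to 52.5%, S100a8 in 47.0 to 47.8% and Cd74 in 79.7 to 80.5%, against 20.6 to 29.1%, 4.99 to 10.9%, 6.90 to 12.2% and 14.3 to 20.9% of Adult members. Thinned endothelial cells, which lack S100a8 too, held it in 2.37, 2.48 and 3.07% in the Adult and 10.9 and 12.8% in the EAE libraries. They held Cd74 in 5.93, 7.49 and 6.51% in the Adult and 38.5 and 38.1% in the EAE libraries. For H2-K1 the endothelial shares were 52.9 to 55.7% in Adult and 91.4 and 91.6% in EAE. Those of Bst2 were 35.4 to 37.0% and then 42.5 and 44.0%, and those of Ifi27l2a 2.45 to 3.90% and then 6.84 and 7.53%. Before thinning, endothelial cells of at least 1500 UMIs had a median depth of 2478 to 3560.5 UMIs. Such CP cells had 2734 to 3294 UMIs in Adult and 8451 and 7875 UMIs in EAE.

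Among genes of the epithelial barrier and of fluid secretion, Cldn1 and Slc12a2 rose in each of the 3 sets of cells, and the size of the folds depended on the set. Neither passed the test without cells with leukocyte UMIs (log2 fold change 2.16, edgeR adjusted p = 0.25 and 1.27, edgeR adjusted p = 0.17). Cldn1, the claudin of tight junctions that marks CP epithelium (chr16:26356642-26371841, GRCm38), stood at 28.1, 11.4 and 19.97 CPM in the Adult and 146 and 148 CPM in the EAE libraries. For Cldn1 the log2 fold change was 2.69 ± 0.18 (SE, edgeR adjusted p = 8.9e-11). The log2 fold change was 1.62 with the share limit and 1.499 at matched depth, and it was called in each set. In cells thinned to 1500 UMIs Cldn1 was found in 3.59, 1.01 and 3.34% in the Adult and 12.5 and 13.3% in the EAE libraries, while endothelial cells of the 5 libraries, which lack this claudin, had it in 0.269 to 0.521%. Before thinning it was found in 3.12 to 8.43% of Adult and 46.7 to 46.9% of EAE members. Of 28 tight and adherens junction genes 11 rose and 5 fell (median 0.05), beside 23.6% and 20.1% of all genes. Cgnl1, a junction scaffold gene, stood at 50.9, 37.1 and 46.8 CPM in the Adult and 149 and 174 CPM in the EAE libraries (1.68 ± 0.13), but at 0.65 with the share limit and 0.19 at matched depth, where it was not called. Cldn2, Cgn, Pard3 and Marveld3 were also called higher. Jam2, which fell (33.6, 28.5 and 24.1 CPM in the Adult and 7.75 and 7.39 CPM in the EAE libraries, -2.09 ± 0.24), is abundant in endothelium, and Cldn11, the claudin of myelin, was at 11.9, 28.5 and 17.9 CPM in the Adult and 0 and 0 CPM in the EAE libraries. Against the 3 UMIs that a count of 0 over the EAE group allows, Cldn11 was at least 43.0-fold lower, and in endothelial cells of the same libraries it stood at 122, 199 and 161 CPM in the Adult and 0.649 and 0.219 CPM in the EAE libraries. At matched depth Jam2 (-1.73) did not pass the test.

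Among 35 genes of ion and water transport 13 rose and 6 fell (median 0.28, and 0.05 at matched depth), where 23.6% of all genes rose and 20.1% fell. Slc12a2, the sodium-potassium-chloride carrier of the apical membrane, stood at 167, 151 and 151 CPM in the Adult and 600.4 and 640.2 CPM in the EAE libraries. For Slc12a2 the log2 fold change was 1.83 ± 0.11 (SE, edgeR adjusted p = 9.9e-13). It was 1.15 with the share limit and 0.98 at matched depth and was called in each set. Thinned cells held it in 19.1, 18.0 and 15.3% in the Adult and 44.2 and 45.2% in the EAE libraries, endothelial cells in 2.86 to 4.41%. The unthinned shares were 30.4 to 35.2% in Adult and 70.1 to 76.0% in EAE members. Slc4a5, a sodium bicarbonate carrier gene, stood at 97.4, 96.2 and 88.8 CPM in the Adult and 275 and 299 CPM in the EAE libraries (log2 fold change 1.45 ± 0.12 (SE), edgeR adjusted p = 2.0e-10), and at 0.72 at matched depth. Cab39, a scaffold of the kinases that act on such carriers, stood at 16.2, 9.27 and 15.1 CPM in the Adult and 71.7 and 60.9 CPM in the EAE libraries (2.102 ± 0.19), 0.99 with the share limit. Stk39, 1 of these kinases, Wnk1 and the sodium pump subunit Atp1b3 were called higher too. Another subunit of the sodium pump and the water channel did not pass the test: Atp1b1 stood at 851, 682 and 658 CPM in the Adult and 966 and 958 CPM in the EAE libraries (log2 fold change 0.24 ± 0.12 (SE), edgeR adjusted p = 0.096) and Aqp1 at 148, 136 and 122 CPM in the Adult and 172 and 194 CPM in the EAE libraries. For Aqp1 the log2 fold change was 0.28 ± 0.12 (SE, edgeR adjusted p = 0.06). Kcnj13, an apical potassium channel gene, fell (254, 104 and 103 CPM in the Adult and 32.3 and 17.7 CPM in the EAE libraries, log2 fold change -2.82 ± 0.62 (SE), edgeR adjusted p = 0.0084). Adult 1 was far above Adult 2 and 3 for this gene, both EAE libraries were below all of them, and it did not pass the test without EAE 2 (-2.42) or at matched depth (-2.68, edgeR adjusted p = 0.07). At matched depth Cab39 (1.28) did not pass the test.

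Of 36 CP identity genes tested 18 were higher and 6 lower in EAE, against 23.6% and 20.1% of all genes (median 0.36, 0.24 with the share limit and 0.16 at matched depth, where 4 rose). Trpm3, a cation channel gene, stood at 208, 172 and 198 CPM in the Adult and 644 and 605 CPM in the EAE libraries. For Trpm3 the log2 fold change was 1.54 ± 0.11 (SE, edgeR adjusted p = 1.3e-11). Otx2, the transcription factor that sets CP identity, stood at 92.0, 79.8 and 119.8 CPM in the Adult and 261 and 252 CPM in the EAE libraries (log2 fold change 1.24 ± 0.13 (SE), edgeR adjusted p = 2.9e-08), and Slc13a4, a sulfate carrier gene, at 88.8, 66.3 and 68.2 CPM in the Adult and 240.1 and 247 CPM in the EAE libraries. The change of Slc13a4 was 1.54 ± 0.13. At matched depth Otx2 (0.58), Slc13a4 (0.49), Slc23a2 (0.81) and Abcc1 (1.32) did not pass the test. Trpm3 was at 0.86 there. Besides Kcnj13 the genes that fell were Sostdc1, Kcne2, Msx1, Calml4 and 1500015O10Rik. Of 38 nutrient, hormone and drug transporters 16 rose and 9 fell (median 0.22), read against the same shares. Slc23a2, the ascorbate carrier, stood at 60.6, 37.1 and 48.2 CPM in the Adult and 203 and 216 CPM in the EAE libraries (log2 fold change 1.93 ± 0.14 (SE), edgeR adjusted p = 4.9e-11), 0.94 with the share limit. Abcc1, an efflux pump of the blood side, rose from 8.12 to 9.64 CPM to 31.7 and 34.2 CPM (1.72 ± 0.26, 0.93 with the share limit). Slco1c1, Slco1a4, Slc2a1 and Abcg2, which are also abundant in brain endothelium, were among the 9 that fell.

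**Figure D4:**
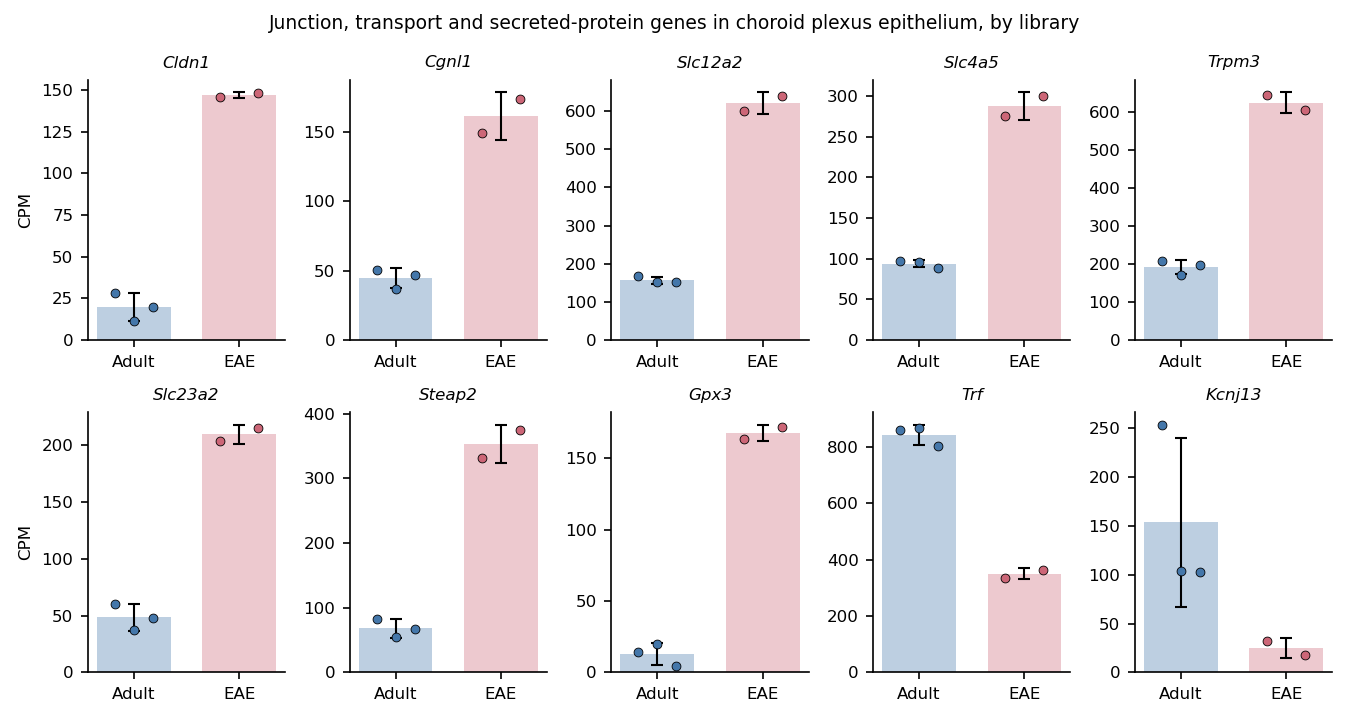
CPM of 10 junction, transport and secreted-protein genes in CP epithelium (linear axes from 0); points are libraries, bars group means and error bars SDs (Adult n = 3, EAE n = 2). The first 8 genes are higher in both EAE libraries, such as Slc12a2 at 600 and 640 CPM against 151 to 167 CPM, and Trf and Kcnj13 are lower.

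Of 20 iron and copper genes 4 were higher and 6 lower (median −0.05), near the 23.6% and 20.1% of all genes. Steap2, a metalloreductase gene, stood at 82.3, 54.2 and 67.5 CPM in the Adult and 332 and 374 CPM in the EAE libraries (log2 fold change 2.21 ± 0.13 (SE), edgeR adjusted p = 6.1e-13), 1.21 with the share limit and 1.03 at matched depth. Slc40a1, the iron exporter ferroportin, fell from 20.7 to 26.0 CPM to 3.69 and 5.81 CPM (-2.51 ± 0.30), as did the metal importer Slc39a8 (-2.55 ± 0.45); both stood in CP cells at under 8% of the level in other cells in each condition. Trf, transferrin, stood at 858, 867 and 801 CPM in the Adult and 335 and 364 CPM in the EAE libraries (log2 fold change -1.43 ± 0.12 (SE), edgeR adjusted p = 7.3e-10), but at -0.53 and not called at matched depth, and its level in other cells of the same libraries went from 480.0 to 738 CPM to 194 and 226 CPM.

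Gpx3 was the gene with the largest rise among those of at least 50 CPM. This selenium-dependent peroxidase is secreted, and it stood at 14.6, 19.96 and 4.82 CPM in the Adult and 164 and 172 CPM in the EAE libraries (log2 fold change 3.51 ± 0.21 (SE), edgeR adjusted p = 1.1e-11), 3.37 with the share limit and 3.46 at matched depth. Its level in EAE was 272% of that in other cells, and thinned CP cells held it in 2.02, 1.77 and 1.11% in the Adult and 12.2 and 11.1% in the EAE libraries (1.59 to 4.98% and 33.3 to 35.6% before thinning, and 0.0521 to 1.36% in thinned endothelial cells). Of 24 secreted proteins of the cerebrospinal fluid 7 rose and 10 fell (median −0.28, and 0.04 at matched depth), beside 23.6% and 20.1% of all genes. Clu, clusterin, stood at 3789, 3088 and 3092 CPM in the Adult and 1936 and 2043 CPM in the EAE libraries (log2 fold change -0.90 ± 0.11 (SE), edgeR adjusted p = 1.6e-07), -0.60 with the share limit and -0.15 at matched depth, where it was not called. Timp2, a metalloproteinase inhibitor, rose from 92.7 to 121 CPM to 269 CPM in each EAE library (1.20 ± 0.12), and Vegfa, which keeps the plexus capillaries fenestrated, rose from 10.7 to 20.02 CPM to 45.6 and 49.1 CPM (1.56 ± 0.21, 0.54 with the share limit). Ptgds, prostaglandin D synthase, stood at 2256, 1884 and 1959 CPM in the Adult and 2365 and 2359 CPM in the EAE libraries and did not pass the test (log2 fold change 0.06 ± 0.11 (SE), edgeR adjusted p = 0.69). Of 25 metallothioneins and antioxidant enzymes 4 rose and 10 fell (median −0.09), beside the same shares of all genes. Gclc, of glutathione synthesis, rose (2.52 ± 0.31, 1.35 with the share limit), while Gstm1 (-1.01 ± 0.13) and Hmox1 (-1.24 ± 0.38, not called with the share limit) fell. Hmox1 also did not pass without Adult 1 or EAE 2 (-0.89 to -0.98), and Gstm1 turned to 0.52 without cells with leukocyte UMIs (edgeR adjusted p = 0.76). At matched depth Timp2 (0.70), Vegfa (1.20), Gstm1 (-0.38) and Hmox1 (-0.12) did not pass the test.

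The smaller lists are read against the same 23.6% of genes higher and 20.1% lower. Of 22 cytokine receptors 4 rose and 4 fell (median 0.41). The subunits of the interferon receptors Ifnar1, Ifnar2 and Ifngr1 and the shared subunit Il10rb were the ones that fell, with Ifngr1 at 52.0, 38.5 and 28.9 CPM in the Adult and 29.4 and 30.3 CPM in the EAE libraries (log2 fold change -0.59 ± 0.18 (SE), edgeR adjusted p = 0.009). The Adult and EAE libraries of Ifngr1 overlapped. With the share limit 2 of 24 cytokine receptors rose and 4 fell, and at matched depth 1 of 18 rose and none fell. Prlr, the prolactin receptor, rose (406, 272 and 333 CPM in the Adult and 809 and 876 CPM in the EAE libraries, 1.16 ± 0.23) but not with the share limit (0.42), and Il6st, the signaling chain of interleukin-6 receptors, rose (1.26 ± 0.21) but not with the share limit (0.32) and stood at -0.86 at matched depth. Lepr (1.12 ± 0.17) and Bmpr1a (1.71 ± 0.25, 0.83 with the share limit) rose as well. Of 7 complement genes C4b, Serping1 and C1ra rose, each at under 13 CPM, and Clu fell. C1ra did not pass with the share limit (0.94) or without any library other than Adult 1 (0.71 to 1.28), nor Serping1 without Adult 2, Adult 3 or EAE 1 (0.68 to 1.13). In the insulin-like growth factor system Igf1r, Irs2, Insr and Igf2 rose and Igf1, Igfbp2 and Igfbp7 fell of 11 tested, with a median of 0.68 that was −0.22 with the share limit. There Igf1r stood at 0.59, down from 1.46 ± 0.24, and Irs2 at 0.23 and not called, down from 1.43 ± 0.45. Irs2 also failed the test without any library other than EAE 1 (1.05 to 1.63). Among 20 cilia genes 5 rose and 3 fell (median 0.04), with Gmnc, a regulator of multiciliated cells, at 5.95, 2.14 and 1.38 CPM in the Adult and 21.3 and 31.9 CPM in the EAE libraries (2.82 ± 0.34, 1.34 with the share limit). Of 8 retinoid genes Rxra rose (1.44 ± 0.27, 0.73 with the share limit) and Dhrs3 (-0.69 ± 0.13) and Rdh5 (-0.37 ± 0.11, -0.18 and not called with the share limit) fell. Rdh5 did not pass without Adult 2, EAE 1 or EAE 2 (-0.29 to -0.38), and without Adult 1 Gmnc stood at 3.74 and 13 cilia genes were called. At matched depth Prlr (0.15), Lepr (0.84), Bmpr1a (0.69), Igf1r (0.62), Irs2 (0.88), Insr (0.84), Igf1 (-0.25), Gmnc (2.33), Rxra (1.17) and Dhrs3 (-0.01) did not pass the test. Ifngr1 and Rdh5 turned there to 0.14 and 0.05, not called.

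Of 18 glucocorticoid targets 9 were higher and 3 lower in EAE, against 23.6% and 20.1% of all genes (median 0.35, 0.44 with the share limit and 0.49 at matched depth). Fkbp5, a co-chaperone of the glucocorticoid receptor, stood at 1.08, 0.713 and 1.38 CPM in the Adult and 16.1 and 16.1 CPM in the EAE libraries. For Fkbp5 the log2 fold change was 3.72 ± 0.47 (SE, edgeR adjusted p = 3.7e-07). Sgk1, a kinase that acts on ion transport, stood at 177, 167 and 158 CPM in the Adult and 397 and 400.5 CPM in the EAE libraries (log2 fold change 1.09 ± 0.11 (SE), edgeR adjusted p = 1.2e-08), and was called in each set of cells. Klf15 stood at 9.74, 9.98 and 13.8 CPM in the Adult and 35.2 and 38.3 CPM in the EAE libraries (1.57 ± 0.21) and Plin4, of lipid droplets, at 2.71, 0.713 and 2.07 CPM in the Adult and 17.1 and 10.8 CPM in the EAE libraries. The change of Plin4 was 2.68 ± 0.48. At these Adult levels Fkbp5 and Plin4 passed the filter on low counts through other groups. They could hardly be called lower, so their calls are no support for the list. The change was smaller in CP than in endothelial cells of the same libraries for 10 of 20 of these genes and larger for 3, against 11.5% and 14.5% of all genes (median difference −0.93), and Fkbp5 stood there at 4.19, 0.986 and 1.28 CPM in the Adult and 56.1 and 58.0 CPM in the EAE libraries. In cells thinned to 1500 UMIs Fkbp5 was found in at most 0.448% of CP cells in an Adult library and in 3.30 and 3.05% in the EAE libraries. In the EAE libraries 7.05 to 7.38% of endothelial cells held it. So did 14.6% of cells with under 10% Ttr and at least 3 leukocyte marker UMIs in each EAE library. Unthinned, 0.208 to 0.454% of Adult and 14.0 to 14.2% of EAE members held it, and its CP level in EAE was 15.3% of that in other cells. The part of other cells' RNA was not tested. Of 17 clock genes 10 rose and 1 fell, beside the same shares of all genes (median 0.80, 0.42 with the share limit and 0.26 at matched depth). Per3 stood at 10.8, 9.98 and 11.0 CPM in the Adult and 41.3 and 41.2 CPM in the EAE libraries (log2 fold change 1.80 ± 0.19 (SE), edgeR adjusted p = 2.8e-08), Tef at 7.58, 8.55 and 6.89 CPM in the Adult and 39.7 and 47.7 CPM in the EAE libraries (2.36 ± 0.22, 1.6005 with the share limit) and Per2 at 2.16, 0 and 1.38 CPM in the Adult and 11.3 and 14.8 CPM in the EAE libraries. The change of Per2 was 3.17 ± 0.47, and 3.99 without Adult 1. Arntl, their activator, fell (11.9, 9.27 and 8.26 CPM in the Adult and 3.23 and 3.96 CPM in the EAE libraries, -1.60 ± 0.37). The difference from endothelial cells was 0.01 ± 0.22, edgeR adjusted p = 0.98 for Per3 and 0.02 for Arntl. The hour of tissue collection is not given in the sources used here. Per2, at no more than 2.16 CPM in Adult, also passed the filter on low counts through other groups. It could hardly be called lower, so its call is no support for the clock list. At matched depth Tef (1.17) did not pass the test. Fkbp5 was at 4.54 there, and Per2, Arntl and Plin4 were too low to be tested.

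Of 22 chaperone and stress genes of the endoplasmic reticulum 9 fell and 4 rose (median −0.23, and −0.44 at matched depth), beside 20.1% and 23.6% of all genes. Hspa5, the master chaperone BiP, stood at 1241, 768 and 797 CPM in the Adult and 555 and 594 CPM in the EAE libraries (log2 fold change -0.86 ± 0.15 (SE), edgeR adjusted p = 9.6e-05), Pdia4 at 270.0, 237 and 237 CPM in the Adult and 89.1 and 99.5 CPM in the EAE libraries (log2 fold change -1.55 ± 0.12 (SE), edgeR adjusted p = 9.6e-11) and Pdia3 at 724, 570.2 and 579 CPM in the Adult and 286 and 285 CPM in the EAE libraries. The change of Pdia3 was -1.29 ± 0.12. These 3 were also called lower at matched depth. The difference from endothelial cells was -0.51 for Pdia4 and -0.62 for Pdia3, smaller than their fall in CP cells. Atf6, a stress sensor of this compartment, rose (1.82 ± 0.28), but stood at 0.87 with the share limit and -0.57, not called, at matched depth. Of 25 immediate early and dissociation stress genes 4 rose and 6 fell (median −0.19), near those shares. With the share limit 3 of 25 rose and 8 fell (median −0.43), where 16.6% and 18.8% of all genes did. At matched depth none of 25 rose and 6 fell (median −0.36), where 1.72% and 2.39% of all genes did. Ier2 stood at 109, 153 and 158 CPM in the Adult and 41.3 and 32.4 CPM in the EAE libraries (log2 fold change -2.08 ± 0.22 (SE), edgeR adjusted p = 2.8e-06) and Klf2 at 328, 303 and 302 CPM in the Adult and 105 and 82.8 CPM in the EAE libraries. For Klf2 the log2 fold change was -1.89 ± 0.34 (SE, edgeR adjusted p = 0.003). Klf2 is abundant in endothelium, where it stood at 3429, 3846 and 3413 CPM in the Adult and 3309 and 3615 CPM in the EAE libraries, and CP cells held 11.2% of the level of other cells in Adult and 4.92% in EAE. Klf4, Jun, Atf3 and Nr4a1 were the other members called lower. At matched depth Klf4 (-0.07) did not pass the test.

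The 12 genes of at least 50 CPM with the largest rise were, besides Gpx3, Ifi27l2a and Cldn1, Pabpn1, Xist, 4632427E13Rik, Nktr, Rnf152, Dst, Scd1, Etl4 and Gldc, with log2 fold changes from 2.30 to 3.51. For 10 of them the fold was over 1.5 times smaller with the share limit, and 3 were called at matched depth (Gpx3, Ifi27l2a and Cldn1). Etl4 turned to -0.57 at matched depth. Rnf152 turned to -6.48 without cells with leukocyte UMIs, which left 16 and 23 EAE cells, and did not pass there (edgeR adjusted p = 0.63). Xist did not pass without Adult 2, Adult 3 or EAE 2 (2.17 to 2.51) or with the libraries that differed least summed (2.42, edgeR adjusted p = 0.17; Adult 2 with 3 and EAE 1 with 2). Neat1 did not pass with them summed either. Without Adult 1 the values of Xist, Pabpn1 and Scd1 were 3.53, 3.99 and 2.98. Xist is a noncoding RNA of the nucleus, and Malat1 and Neat1, nuclear noncoding RNAs singled out after their values had been seen, stood at 3155, 1599 and 2071 CPM in the Adult and 5306 and 5088 CPM in the EAE libraries (1.04 ± 0.27) and 124, 29.2 and 52.3 CPM in the Adult and 289.5 and 349 CPM in the EAE libraries (2.03 ± 0.51), with 0.11 and 1.10 and no call with the share limit. Scd1, a fatty acid desaturase gene, stood at 32.5, 13.5 and 11.7 CPM in the Adult and 112 and 113 CPM in the EAE libraries (2.32 ± 0.29, 1.31 with the share limit), Gldc, of glycine cleavage, at 13.0, 4.99 and 8.95 CPM in the Adult and 52.3 and 50.1 CPM in the EAE libraries (2.30 ± 0.23, 1.41).

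The 12 with the largest fall, with a median of −3.29, or −3.16 with the share limit, held several markers of other cells. At matched depth 7 of the 12 were called, and Fcrls, Pf4, Ccl7, Pgk1 and Kcnj13 were not. Ccl7 turned to 0.12 without cells with leukocyte UMIs and did not pass there (edgeR adjusted p = 0.99). With the same libraries summed (those of a chi-square under 2 per degree of freedom), Ccl7, Ppia, Pgk1, Cox5a and Kcnj13 did not pass (edgeR adjusted p from 0.074 to 0.14). Car4 and Itm2a of endothelium (-4.34 ± 0.20 and -2.85 ± 0.15) and Fcrls, Pf4 and Ccl7 of macrophages (-4.74 ± 0.45, -3.42 ± 0.46 and -3.94 ± 0.79) stood in CP cells at 4.16 to 6.94% of the level in other cells in EAE, and so did Ltbp4 (-3.15 ± 0.29). The genes mt-Nd3, Cox5a, Ost4 and Pgk1 were lower in endothelial cells of the EAE libraries too. Whether all libraries were counted with the same annotation is not given in the sources used here, so for these genes a change in RNA and one in counting cannot be told apart. How many of the other genes called lower share this limit was not tested. In all 3 sets of cells 31 genes were called lower that fell more than in endothelial cells and reached the level of other cells in Adult. Of these 31, 13 bear names made of Gm and a number. The mitochondrial gene mt-Nd3 stood at 438, 372 and 404 CPM in the Adult and 0 and 0 CPM in the EAE libraries, so against the 3 UMIs that a count of 0 over the EAE group allows it was at least 936-fold lower; it was listed at 0 in endothelial cells of both EAE libraries too, at 103, 85.4 and 106 CPM in the Adult and 0 and 0 CPM in the EAE libraries. Cox5a, a subunit of cytochrome oxidase, stood at 259, 160.4 and 193 CPM in the Adult and 37.4 and 26.9 CPM in the EAE libraries (log2 fold change -2.84 ± 0.59 (SE), edgeR adjusted p = 0.0062) and in endothelial cells at 182, 93.0 and 110.0 CPM in the Adult and 42.5 and 23.8 CPM in the EAE libraries. Ost4 and Pgk1 (-3.01 ± 0.49 and -3.16 ± 0.72) were lower in both cell types, as did Ppia, singled out after its values had been seen, with 1236, 980.0 and 1148 CPM in the Adult and 289.8 and 210.3 CPM in the EAE libraries in CP and 1074, 765 and 853 CPM in the Adult and 305 and 206 CPM in the EAE libraries in endothelial cells. The fall was larger in CP than in endothelial cells for Cox5a (difference -0.97 ± 0.17, edgeR adjusted p = 2.3e-04), Pgk1 (-1.10 ± 0.25, edgeR adjusted p = 0.0026), Ost4 (-0.81 ± 0.21, edgeR adjusted p = 0.0059) and Ppia (-0.60 ± 0.12, edgeR adjusted p = 5.2e-04). Without EAE 2, Cox5a (-2.60) and Pgk1 (-2.82) did not pass the test. Of 15 mitochondrial transcripts tested 8 were higher and 6 lower in EAE, beside 23.6% and 20.1% of all genes. mt-Cytb, of complex III, stood at 9097, 8355 and 8979.8 CPM in the Adult and 19719.9 and 20597 CPM in the EAE libraries (log2 fold change 1.04 ± 0.10 (SE), edgeR adjusted p = 6.5e-09), while endothelial cells held 2808, 2953 and 2979 CPM in the Adult and 2846 and 2972 CPM in the EAE libraries.

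To compare the change in CP epithelium with that in another cell type, it was tested against that of 10982 endothelial cells of the same 5 libraries, with the library as a block. It differed for 3330 of 12791 genes (26.0%), 1855 larger (14.5%) and 1475 smaller (11.5%) in CP cells, at a median difference of 0.11 over all genes. With RLE scaling that median was −0.03 and the split 1499 and 1986, so directions near 0 depend on the scaling. Without EAE 1 the count was 1404, without EAE 2 it was 1267, and with the share limit 2582. Interferon-stimulated genes were larger in CP cells for 10 of 37 and smaller for 4 (median 0.41). The difference was 1.24 ± 0.14, edgeR adjusted p = 1.3e-06 for Bst2, 1.53 ± 0.24, edgeR adjusted p = 3.2e-04 for Ifi27l2a, 1.25 for Lgals3bp and 1.59 for Ifit1. Endothelial cells held Bst2 at 313, 339 and 340.1 CPM in the Adult and 405 and 441 CPM in the EAE libraries. MHC class I genes were smaller in CP cells for 10 of 23 and larger for 3 (median −0.40), and acute phase genes smaller for 13 of 33 and larger for 1 (median −1.06). The difference for H2-K1 was -0.06 ± 0.16, edgeR adjusted p = 0.83. Slc12a2 and Cldn1 rose more than in endothelial cells, by 1.78 and 3.16.

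By the rule for named genes, the 5 largest positive differences from endothelial cells were those of Sox9, Scd2, Ppp1r9a, Nfasc and Nrep. Sox9, a transcription factor of glia and CP epithelium, stood at 59.5, 49.2 and 53.7 CPM in the Adult and 133 and 149.8 CPM in the EAE libraries in CP cells and at 26.4, 33.4 and 35.7 and then 1.95 and 5.47 CPM in endothelial cells (difference 4.26 ± 0.30), so it was higher in EAE in CP cells and lower in endothelial cells. Scd2, a desaturase gene, stood at 137, 90.5 and 98.5 CPM in the Adult and 472 and 519.7 CPM in the EAE libraries in CP cells and 127, 109 and 109.6 and then 29.9 and 38.1 CPM in endothelial cells (3.72 ± 0.15). All 5 were lower in endothelial cells of both EAE libraries than of any Adult library. The oligodendrocyte markers in kept cells with under 10% Ttr also fell, from 1846, 3600 and 3048 CPM in Adult to 121 and 102 CPM in EAE. The part of other cells' RNA in endothelial cells was not tested. The largest negative ones were Angpt2, Stmn2, Slc26a10, Lcn2 and Darc. Slc26a10 stood at -6.88 without EAE 1 and at -2.98, not called, without EAE 2. Without Adult 1 Stmn2 was at -3.30, and without EAE 2 Darc was at -4.20 and Sox9 at 5.03. Lcn2 stood at 2.51, 9.16 and 6.26 and then 999 and 894 CPM in endothelial cells (-3.57 ± 0.66), and Angpt2, a ligand of vessel remodelling, at 11.7, 12.4 and 9.54 and then 118 and 112 CPM (-4.25 ± 0.33). Against 183 astrocytes of the same libraries, of which Adult 2 and 3 held 21 and 20, the change differed for 182 of 9727 genes (1.87%), 63 larger (0.648%) and 119 smaller (1.22%) in CP cells. That count was 121 without Adult 1, 111 without Adult 3, 70 without EAE 1 and 39 without EAE 2. Lcn2 stood at 0, 0 and 0 and then 576 and 1906 CPM in astrocytes (difference -8.63 ± 2.32). The largest positive differences, of Prlr, Lpgat1, Slc6a20a, Slc13a4 and Htr2c, rest on 7 to 18 UMIs in Adult and 0 in EAE astrocytes, so their fitted values depend on a prior count. Without Adult 1 the differences were 1.24 for Prlr, 1.19 for Slc6a20a and 0.91 for Htr2c, and none passed, while those of Lpgat1 and Slc13a4 passed in no run without Adult 1, Adult 3, EAE 1 or EAE 2. The difference of Lcn2 from astrocytes passed only without EAE 1, among the 5 left-out libraries.

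**Figure D5:**
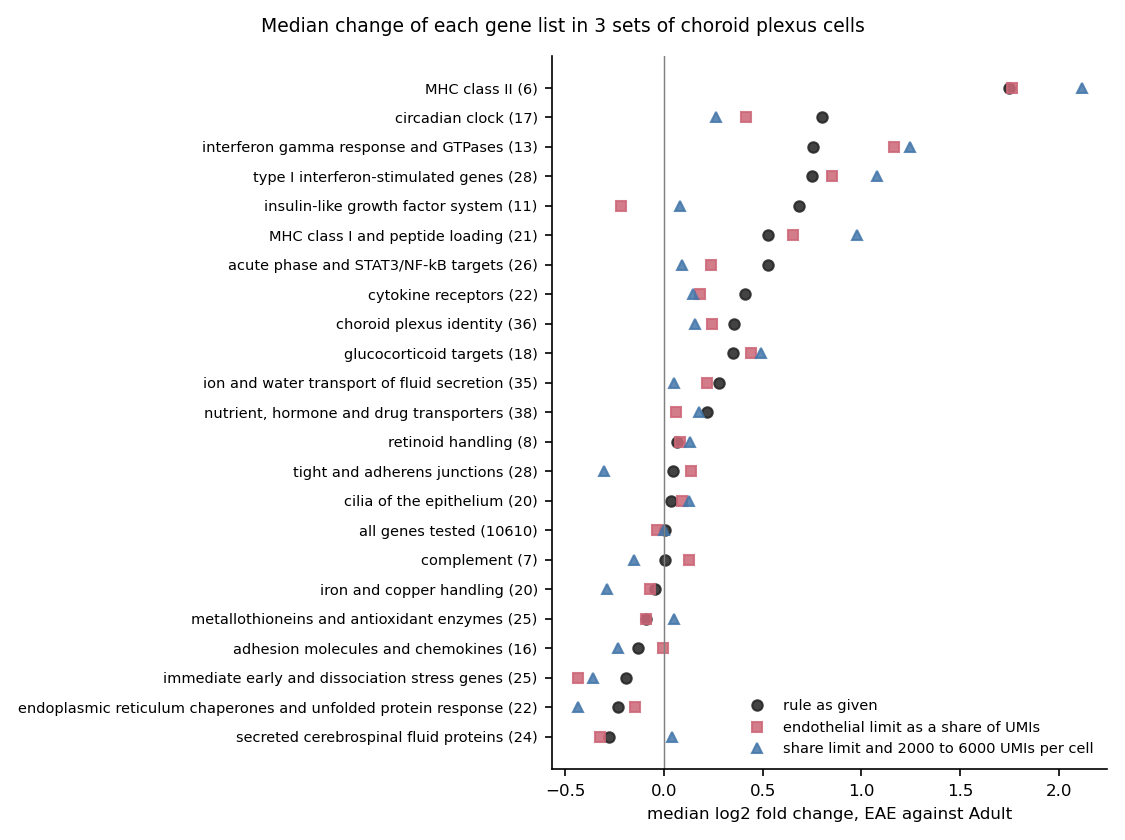
Median log2 fold change (EAE against Adult) of each gene list in CP epithelium, with the number of genes tested under the rule as given in brackets; circles are the rule as given, squares the endothelial limit as a share of UMIs, triangles the share limit with cells of 2000 to 6000 UMIs. The medians of MHC class II, both interferon lists and MHC class I lie at or above 0.53 in each set, whereas the medians of the clock and acute phase lists move towards 0 and that of the growth factor list goes from 0.68 to −0.22 with the share limit.

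CP epithelium made up a smaller share of the kept cells in both EAE libraries than in any Adult library. It was 16.4%, 12.7% and 11.3% in the Adult and 3.82% and 4.68% in the EAE libraries, 13.5% ± 2.61 (SD, n = 3) against 4.25% ± 0.608 (SD, n = 2). The libraries did not overlap, and the exact permutation test, two-sided, gave p = 0.1, the smallest that 3 against 2 libraries allow. Cells with under 10% Ttr and at least 3 leukocyte marker UMIs numbered 6266 and 6139 in EAE and 1353, 1941 and 1931 in Adult libraries. This count had no endothelial limit, so it also holds cells counted as endothelial. Shares were also taken of kept cells with fewer than 3 such UMIs: 26.8% ± 4.10 in Adult against 10.3% ± 2.187 in EAE. CP cells with 3 or more were left out there too, namely 33.1%, 9.15% and 11.3% of Adult and 50.6% and 46.7% of EAE members. This step thus removed a larger part of the EAE members. With the share limit the shares were 24.02% ± 7.82 in Adult and 5.27% ± 0.559 in EAE (difference −18.7 percentage points, exact p = 0.1), and with Ttr at 5% the difference was −15.3 (exact permutation p = 0.3). Adult 1 stood apart with a median of 5.21% Ttr in cells under 10%, against 0.635 to 1.78% in the other 4 libraries, and without it the difference between the means went from −9.23 to −7.78 percentage points. The share also depends on how much plexus came with the cortex, which was not measured.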

How the data were processed

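Single cells of myelin-depleted cortex were counted by 10x 3′ v2 chemistry. Per the submitters' processing notes the tools were bcl2fastq 2.19.1.403, STAR 2.5.3a, featureCounts 1.6.1 and UMI-tools 0.5.3 with the mm10 genome. The authors deposited raw UMI counts per gene and cell, with no normalization. Free RNA of other cells can add to such counts. Totals were 15755504 to 19605914 UMIs in the Adult and 34123281 to 34326349 in the EAE libraries, and intervals and floors cover counting error only.

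UMIs of the CP cells were summed per library and tested with edgeR 4.0.16 (R 4.3.3, quasi-likelihood, TMM scaling, filterByExpr), fitted with the CP sums of all 11 libraries, so the groups shared 1 estimate of the spread. These include the Juvenile (postnatal day 10) and Aged (18 months) libraries. With the 5 Adult and EAE libraries alone, 4143 of 9606 genes were called. P-values were adjusted over all genes tested (Benjamini-Hochberg). Standard errors were taken as the absolute log2 fold change over the root of F. Differences from endothelial cells and astrocytes came from 1 model with the library as a block. Cells were clustered in no step, and doublets marked by Scrublet (scanpy 1.11.5) were left out as an alternative. DESeq2 1.42.0, RLE scaling, other gates and left-out libraries were further alternatives. The edgeR fits were tested on simulated data, where the comparison within CP cells found more of the changed genes than that with endothelial cells and the one with astrocytes found none, so a missing call there says nothing. By a chi-square on summed UMIs, all pairs of libraries within a condition differed beyond the noise of counting UMIs. Per degree of freedom it was 1.58 for EAE 1 and 2 and 1.35 for Adult 2 and 3. For Adult 1 it was 4.27 with Adult 2 and 4.43 with Adult 3. The measure leaves out the draw of cells, so it does not show that libraries came from separate mice. At most 1 CP barcode was shared by any pair. The members and gene lists were chosen with earlier results of these data known. Named genes were the 12 with the largest rise and the 12 with the largest fall (called, at least 50 CPM in the higher group, no overlap), up to 4 called members of each list, and the 5 largest differences in each direction from either other cell type. Genes outside this rule (among them Bst2, Lgals3bp, Rtp4, Isg15, Otx2, B2m, H2-D1, Sgk1, Hspa5, Ifngr1, Vcam1, Aqp1, Atp1b1, Ptgds, Ppia, Malat1, Neat1, S100a8, S100a9 and mt-Cytb) were chosen after their values had been seen. Genes present as near-identical copies, such as H2 class I genes, are uncertain, since shared reads can be split between them. Promoters came from RefSeq (GRCm38.p6). Results for some genes are not reported here.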

Additional observations from a re-analysis of the deposited data

Results flagged for a closer look

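The change in EAE differed between CP epithelium and other cells of the same libraries, tested as an interaction. It differed for 3330 genes from endothelial cells and for 182 from astrocytes (edgeR, adjusted over all genes). From endothelial cells the largest positive differences on the log2 scale were 4.26 for Sox9, 3.72 for Scd2, 3.56 for Ppp1r9a, 3.55 for Nfasc and 3.48 for Nrep, and the largest negative ones −4.25 for Angpt2, −4.03 for Stmn2, −4.0 for Slc26a10, −3.57 for Lcn2 and −3.52 for Darc. From astrocytes they were 9.17 for Prlr, 8.69 for Lpgat1, 8.64 for Slc6a20a, 8.48 for Slc13a4 and 8.47 for Htr2c, and −8.63 for Lcn2, −8.55 for Tubb3, −7.14 for Nrxn3, −6.71 for Cldn11 and −5.85 for Col3a1. Several of the latter rest on 0 UMIs in a group of astrocytes, so their size depends on a prior count. Without EAE 1 the difference from astrocytes was −2.32 for Tubb3, and without EAE 2 it was −1.87 for Col3a1 and −7.23 for Nrxn3; none of these passed. Without Adult 1 that of Col3a1 was −3.89 and did not pass. From endothelial cells Slc26a10 was at −6.88 without EAE 1 and at −2.98, not passing, without EAE 2. Without Adult 1 the differences of Prlr, Slc6a20a and Htr2c from astrocytes were 1.24, 1.19 and 0.91, none passing.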

How the results depend on the processing

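The count of 4632 genes called was within 1.5 times under RLE scaling, no filter, DESeq2, each left-out library and most gates. It was 2825 with Ttr at 5% of UMIs, 298 with cells of 2000 to 6000 UMIs, 310 with the share limit as well, and 33 without cells with leukocyte UMIs. The 3330 genes that differed from endothelial cells were 1678 with DESeq2, 1058 with the least different libraries summed (Adult 2 with 3 and EAE 1 with 2, which leaves 1 EAE sample), 108 without cells with leukocyte UMIs, and 1267 to 4299 with a library left out. The 182 that differed from astrocytes were 100 with no filter, 29 with DESeq2, 97 with libraries summed, 3 without cells with leukocyte UMIs, 84 with the share limit, and 39 to 125 with a library left out. Direction turned without cells with leukocyte UMIs for Rnf152 (−6.48), Ccl7 (0.12), Gstm1 (0.52), Foxj1 (−0.79), Rdh5 (0.081) and the difference of Stmn2 from endothelial cells (0.41), and for H2-Q4 (−0.46) with Ttr at 5%. Without cells with leukocyte UMIs, which left 16 and 23 EAE cells, Rnf152, Ccl7, Gstm1, Foxj1 and Rdh5 did not pass (edgeR adjusted p from 0.63 to 0.99). With cells of 2000 to 6000 UMIs, and then with the share limit as well, it turned for Etl4 (−0.48 and −0.57), Il6st (−0.73 and −0.86), Slc39a14 (−2.10 and −1.28), Cyr61 (−0.19 and −0.40), Atf6 (−0.51 and −0.57) and Rdh5 (0.049 and 0.050), and for Klf4 (0.083) with the first alone. The cause was not tested. With the least different libraries summed, Irgm1, Serping1, C1ra, Rdh5 and Ifngr1 also lost their calls, besides those named with the largest changes.

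Replicate numbers did not pair the libraries (r = 0.0269 for Adult 1 and EAE 1 and 0.0133 for Adult 2 and EAE 2). With the replicate number as a block 4396 genes were called, and 100 of 101 named genes kept their call and direction.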
